A study of Mus musculus with 84 samples.

Results

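The livers of db/db mice given the higher of 2 doses of a compound that the sample labels name only S, 280 µmol/kg, were compared with the livers of mice given 28 µmol/kg of it. Members were chosen by tissue, compound and dose in the sample labels, which gave 6 mice at each dose, 12 of the 84 samples of the series. The mice were of the strain BKS Cg-m+/+ Leprdb/J, homozygous for a leptin receptor defect, and received the compound by mouth for 18 days; the paper bought male animals of this strain. Liver RNA of each mouse was hybridised on whole-genome 2-colour arrays against a pool of liver RNA from 6 untreated db/db mice, on a pair of arrays with the dyes exchanged, so 24 arrays carry the comparison. The same pool lies under both doses and cancels in the difference between them. Further treated db/db livers serve for reference here, 6 mice at 84 µmol/kg of S and 12 mice on rosiglitazone (RSG) at 28 or 280 µmol/kg, given in the same way. The statistical fit, and so its estimate of spread, also held 6 mice on RSG at 84 µmol/kg, whose values are not described. The structure, target and purpose of S are not given in the sources used here, and a db/db mouse without leptin signalling is a model of obese diabetes only.

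Liver balances fuel use through nuclear receptors. PPARα (Ppara) turns on genes that take up and burn fatty acids in mitochondria, peroxisomes and microsomes, PPARγ (Pparg), the receptor of RSG, turns on fat storage genes mainly in adipocytes, and SREBP factors turn on cholesterol and fatty acid synthesis. Hepatocytes also make glucose, clear ammonia through the urea cycle, break down amino acids, conjugate drugs and steroids, and secrete most plasma proteins, while few of them divide in an adult animal.

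Levels below are log2 of the mouse over the pool, and where 3 values stand together they are the lowest, the median and the highest of the 6 mice. Differences are 280 minus 28 µmol/kg on the log2 scale ± the standard error (SE) from limma, with its Benjamini-Hochberg adjusted p over all 26023 sequences tested (a sequence is 1 array probe), and a sequence was called under 0.05. Of the probes, 58.4 to 63.7% stood well above background in Cy5 and 51.0 to 58.2% in Cy3 on the arrays of these 12 mice, and the number of arrays limits the precision. The median SD between mice was 0.12 at 28 and 0.16 at 280 µmol/kg, against 0.07 between 6 technical repeats of a 28 µmol/kg sample. All 17 hepatocyte markers measured, such as albumin, stood above background on all 24 arrays. One technical feature went with the dose: all 6 mice at 28 µmol/kg were scanned on the same day, 4 of the 6 at 280 on another and 2 on a further day. The 84 µmol/kg group has mice on each of these days, which allowed a fit with scan day as a block, and its values are given beside results that it changed. No other group in that fit shares the day of the 28 µmol/kg mice, so for that day it rests on 2 mice at 84. In 1 of them, replicate 1, the 2 arrays agreed least of all liver mice, with a correlation of -0.66 before the sign was turned.

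The higher dose gave a broad difference. At 280 µmol/kg 3277 sequences were called higher (12.6% of those tested) and 4145 lower (15.9%), and the median over all sequences was -0.03. Most differences were small, with a median size of 0.32 among those called, but 342 sequences were at least 2-fold higher and 142 at least 2-fold lower. The 6 values at 280 µmol/kg lay all above the 6 at 28 for 1829 sequences (7.03%) and all below for 2103 (8.08%). With an unadjusted limma p below 0.001 and at least a 1.3-fold difference, 1193 were higher (4.58%) and 1085 lower (4.17%). These 2 thresholds are the study's, but the paper used the Rosetta error model and compared each group with untreated db/db mice, so its counts are not comparable. With scan day as a block, 1061 sequences were called higher (4.08%) and 1363 lower (5.24%). Of the 7422 sequences called without it, 2153 kept their call and 98.4% kept their sign. The same mice enter both fits, so a kept sign is no separate check. The SE rose with the block from a median of 0.09 to 0.16. Counts from gene lists below stand against the shares over all sequences, 12.6% higher and 15.9% lower, or 4.08 and 5.24% with the block. RNA came from whole tissue, so that fewer cells of a type and less RNA per cell cannot be told apart in any value below.

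Among the highest differences were genes of fatty acid handling and several that liver hardly uses. Gabrg1, a subunit of the GABA-A receptor of neurons, stood at -0.12, 0.17 and 0.63 at 28 µmol/kg and at 3.45, 4.06 and 5.22 at 280. It was above background on none of the 12 arrays at 28 µmol/kg and on all 12 at 280 and so passed the filter on dim signals through the 280 group alone. Only a bound can be given for such a gene, here at least 1.81-fold higher. The adjusted p of 2.06e-13 from limma belongs to the difference of the log ratios, not to this bound. Its probe lies at chr5:71031077-71031136 (mm8, the build of the array files). Fabp3, the fatty acid binding protein of heart and muscle (probe at chr4:129817668-129817727, mm8), rose from 0.27, 0.40 and 1.44 to 4.29, 4.32 and 4.82. The groups lay far apart, and the difference was 3.82 ± 0.30 or 14.1-fold (adjusted p = 1.24e-10). Otop1, a proton channel, rose from 0.69, 0.87 and 1.32 to 3.68, 4.53 and 6.26, a difference of 3.73 ± 0.43 (adjusted p = 9.88e-08).

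Fabp4, a carrier of fatty acids made by adipocytes and a PPARγ target, was already above the pool at 28 µmol/kg, at 1.54, 2.00 and 2.43, and stood at 5.03, 5.57 and 5.75 at 280. No mouse overlapped, and the difference was 3.51 ± 0.34 or 11.4-fold (adjusted p = 5.81e-09); 3 sequences of the gene gave 2.85 to 3.67. Lpl, the lipase that frees fatty acids from lipoproteins (probe at chr8:71835357-71835416, mm8), went from 0.38, 1.44 and 1.83 to 4.05, 4.17 and 4.50, 7.53-fold higher (2.91 ± 0.24, adjusted p = 2.44e-10). The 6 mice at 280 µmol/kg differed little from each other, with an SD of 0.16 against 0.52 at 28. Msantd3 and Fbp2, the muscle form of fructose bisphosphatase, were higher by 3.03 ± 0.31 (adjusted p = 1.28e-08) and 2.82 ± 0.29 (adjusted p = 1.1e-08), each above background on 2 of 12 arrays at 28 µmol/kg and on all 12 at 280. All of these genes were also called with scan day as a block, with adjusted p from 7.49e-08 for Gabrg1 to 0.001 for Msantd3.

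**Figure D1:**
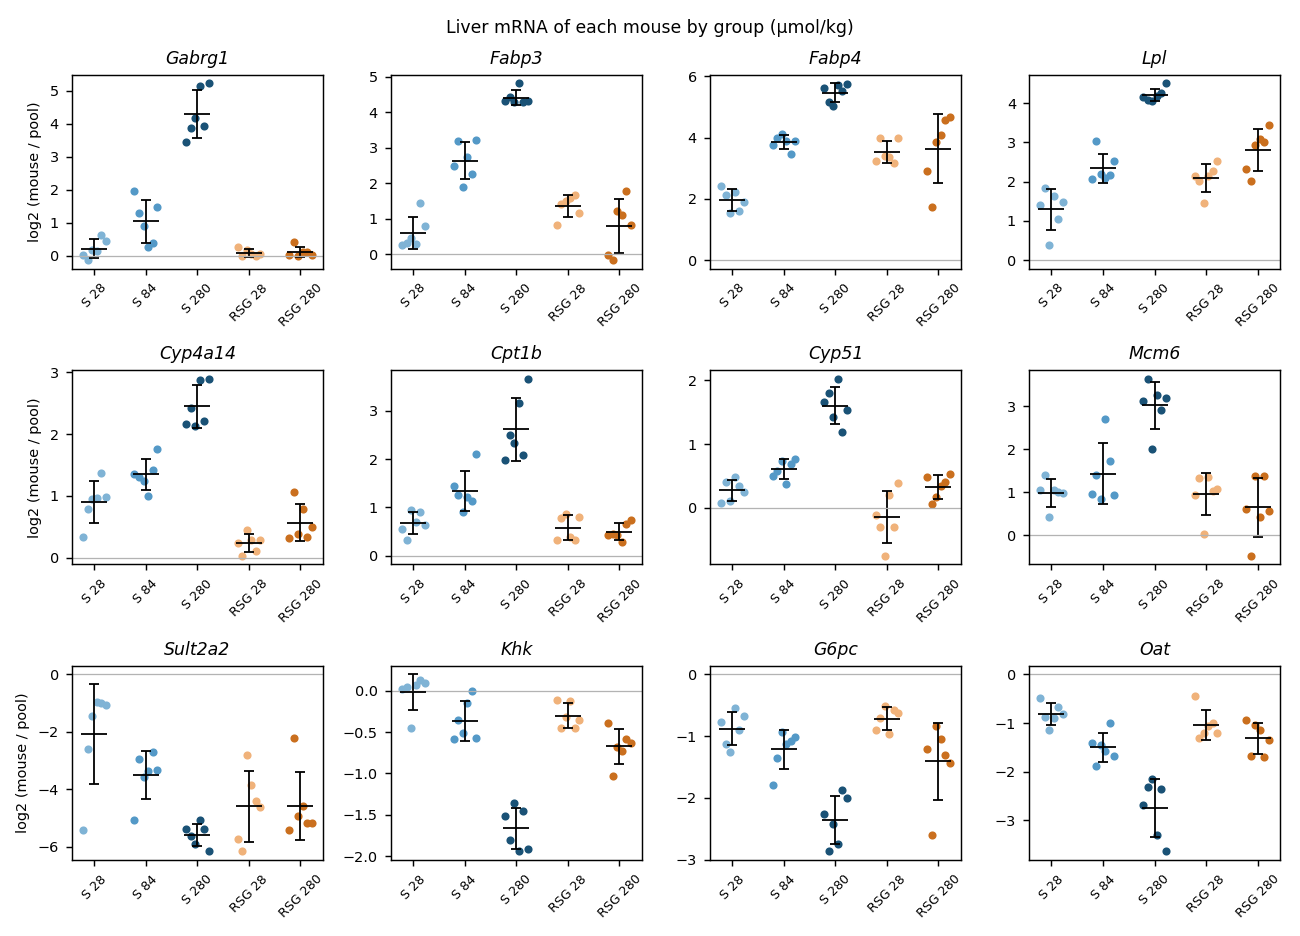
Level of 12 genes (log2 of the mouse over the pool of untreated db/db mice, vertical axis, each panel on its own scale) in each liver, by compound and dose in µmol/kg (horizontal axis); points are mice, the wide line is the mean and the bars are 1 SD of 6 mice. For 11 genes the points at 280 µmol/kg of S lie clear of those at 28, while in Sult2a2 a mouse at 28 µmol/kg lies at -5.40, among those at 280.

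Of 21 genes measured that bring fatty acids into the cell and activate them, 16 were called higher and 2 lower, with a median difference of 0.53; 11 lay higher without overlap between the doses. Acot1, which cleaves acyl-CoA in the cytosol, stood at 0.56, 1.10 and 1.65 and then at 2.51, 3.34 and 5.20 (2.54 ± 0.30, adjusted p = 8.99e-08). Its mitochondrial neighbour Acot2 rose by 1.85 ± 0.20, and as the genes are near copies their probes may share signal. With scan day as a block 8 of the 21 were called higher and none lower, with a median of 0.43.

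Of 31 genes measured in peroxisomal and microsomal fatty acid oxidation, the classical targets of PPARα, 17 were called higher and 2 lower, and the median was 0.34; 8 and 1 were called with scan day as a block. Ehhadh, the bifunctional enzyme of peroxisomal oxidation, stood at 1.38, 1.79 and 2.00 at 28 µmol/kg and at 3.03, 3.13 and 3.45 at 280, a difference of 1.44 ± 0.10 (adjusted p = 6.92e-12). The 2 groups are tight and far apart, and the block left the value at 1.43. Cyp4a14, an omega hydroxylase, stood at 0.33, 0.96 and 1.37 and then at 2.13, 2.31 and 2.89 (1.55 ± 0.16, adjusted p = 9.27e-09). Its relatives Cyp4a31 and Cyp4a10 were higher by 1.62 ± 0.17 and 1.13 ± 0.13, and probes of such near copies may share signal. Ech1, an isomerase of fatty acid oxidation, rose by 0.73 ± 0.06 (adjusted p = 9.31e-10). Phyh, which starts the alpha-oxidation of phytanic acid, went the other way, from -0.24, -0.16 and -0.03 to -0.76, -0.58 and -0.46 (-0.45 ± 0.05, adjusted p = 7.27e-08; -0.28 with the block).

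In mitochondrial beta-oxidation 14 of 23 genes were called higher and 3 lower with a median of 0.32, against 5 and 1 with a median of 0.16 with scan day as a block. Cpt1b, the muscle form of the enzyme that lets long-chain fatty acids into mitochondria, went from 0.32, 0.67 and 0.95 to 1.98, 2.42 and 3.66 (1.94 ± 0.20, adjusted p = 1.45e-08). The liver form of the same enzyme, Cpt1a, was not called: it stood at -0.51, -0.22 and -0.02 and at -0.40, -0.10 and 0.43 (0.15 ± 0.13, adjusted p = 0.437), and the sign turned to -0.11 with scan day as a block. Acadl and Eci1, enzymes within the spiral, were each higher by 0.84, with SE of 0.09 and 0.08. Of 9 ketone body genes 2 were called higher and 1 lower, or 1 and 1 with scan day as a block. Acat1, a mitochondrial thiolase, was higher by 0.41 ± 0.06 (adjusted p = 4.61e-06), and so was Oxct1, which burns ketones outside liver, by 0.52 ± 0.15 (adjusted p = 0.0107), a call lost with the block (adjusted p = 0.116).

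Among 16 lipid droplet proteins 6 were called higher and 2 lower, with a median of 0.10. With scan day as a block 1 was called in each direction and the median turned to -0.09. Hsd17b11, a dehydrogenase that sits on droplets, went from 0.66, 0.88 and 0.99 to 2.09, 2.60 and 3.44 (1.83 ± 0.14, adjusted p = 5.49e-11). Cidea, which fuses droplets and is typical of brown fat, was high at both doses, with 3.09, 3.64 and 4.16 at 28 µmol/kg and 4.36, 4.83 and 5.04 at 280 (1.13 ± 0.28, adjusted p = 0.0025). That call was lost with the block (0.71, adjusted p = 0.342). Its relative Cidec, a PPARγ target, stood at 3.45, 3.60 and 3.72 and at 2.62, 3.38 and 4.18 and was not called (-0.17 ± 0.22, 95% interval -0.62 to 0.29, adjusted p = 0.62; -0.63 and still not called with the block). G0s2, an inhibitor of the main triglyceride lipase, was lower by -0.89 ± 0.23 (adjusted p = 0.0036; 0.0588 with the block).

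Of 14 lipolysis genes 7 were called higher and 2 lower, and 1 and 2 with the block; the glycerol channel Aqp7 rose by 1.65 ± 0.27 (adjusted p = 1.42e-05; 0.137 with the block). Of 10 uncoupling and brown adipocyte genes 4 were called higher, Fabp3, Cpt1b, Cidea and Ucp2, and none lower, or 2 and none with the block. Ucp2, a carrier of the mitochondrial inner membrane, rose from 0.67, 0.91 and 1.18 to 1.43, 1.80 and 2.50 (0.95 ± 0.18, adjusted p = 9.45e-05; 0.0665 with the block). Pdk4, which spares glucose by shutting pyruvate dehydrogenase, was called higher by 1.07 ± 0.36 (adjusted p = 0.0235), but 1 mouse at 280 µmol/kg stood at 4.69 and the next at 2.05. Without that mouse the difference was 0.58 and the call was lost, as it was with the block (adjusted p = 0.415).

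Of 25 genes of cholesterol synthesis and sterol sensing measured 17 were called higher and 1 lower, with a median of 0.57, and 14 lay higher without overlap between the doses. Cyp51, which removes a methyl group from lanosterol, stood at 0.07, 0.30 and 0.49 and then at 1.20, 1.59 and 2.02, 2.51-fold higher (1.33 ± 0.16, adjusted p = 2.5e-07). Idi1, an early isomerase, and Sqle, the epoxidase that opens the sterol branch, were each higher by 1.41, with SE of 0.21 and 0.22. Hmgcs1, the cytosolic synthase that feeds the pathway, rose by 1.25 ± 0.20 (adjusted p = 1.1e-05; 0.0876 with the block). Acat2, the cytosolic thiolase at its start, was the gene called lower (-0.22 ± 0.06, adjusted p = 0.008; 0.163 with the block). With scan day as a block the median was 0.51, and 4 genes were called higher and none lower.

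Of 20 fatty acid synthesis genes 4 were called higher and 2 lower, and the median was -0.02, with 1 and 1 called with the block and a median of -0.08. Scd2, a desaturase of brain and other tissues, rose from 0.59, 0.90 and 1.99 to 3.13, 3.56 and 4.13 (2.46 ± 0.25, adjusted p = 1.32e-08), while Scd1, the liver form, stood at 2.10, 2.55 and 2.80 and at 1.73, 2.13 and 2.54 (-0.37 ± 0.22, adjusted p = 0.236; -0.68 and still not called with the block). Fasn, the fatty acid synthase, was not called either (-0.93 ± 0.44, adjusted p = 0.116), with values at 280 µmol/kg from -0.14 to 1.94. Thrsp, a lipogenic protein, was lower by -1.28 ± 0.36 (adjusted p = 0.0067) and Fads2, a desaturase, higher by 0.65 ± 0.15 (adjusted p = 0.0014), and both calls were lost with the block (adjusted p = 0.287 and 0.618). Triglyceride synthesis had 4 of 17 genes called higher and 4 lower, or 1 and 2 with the block. Dgat2, which adds the last acyl chain, was lower by -0.74 ± 0.10 (adjusted p = 5.77e-07), and Mogat1, which acts before it, was higher by 1.08 ± 0.21 (adjusted p = 0.000136; 0.0913 with the block).

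Cell cycle genes held the highest median of the 37 pathway lists, 0.90. Of 40 measured 29 were called higher and none lower, and 16 did not overlap between the doses. The median over the list ran from 0.14 to 1.37 in the mice at 28 µmol/kg and up to 2.35 at 280, where the lowest mouse lay just under the highest at 28. With scan day as a block the median was 0.68 and 4 genes were called, and among the mice of a shared scan day the 4 at 280 µmol/kg exceeded the 3 at 84 by a median of 1.09, with 14 genes called higher. Gmnn, which holds back replication, Pcna, the clamp of DNA polymerase, and Rrm1, a subunit of the reductase that makes deoxynucleotides, had the firmest differences, at 0.70 ± 0.08 (adjusted p = 1.03e-07), 0.91 ± 0.12 (adjusted p = 6.6e-07) and 1.23 ± 0.16 (adjusted p = 9.34e-07). Pcna stood at 0.01, 0.13 and 0.30 at 28 µmol/kg and at 0.45, 1.05 and 1.68 at 280. All 3 were also called with the block.

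Mcm2 to Mcm7 form the helicase that opens DNA for replication, and Mcm2 to Mcm6 were chosen after their values were seen. All 6 were called higher, by 1.23 to 2.04, without overlap between the doses. Mcm6 (probe at chr1:130159147-130159206, mm8) went from 0.41, 1.02 and 1.39 to 1.99, 3.16 and 3.63 (2.04 ± 0.30, adjusted p = 3.1e-06), and Mcm7 from 0.26, 0.53 and 0.78 to 1.12, 2.04 and 2.36 (1.42 ± 0.20, adjusted p = 1.38e-06). With the block Mcm4 alone among them was called (1.18, adjusted p = 0.0488), and the others had adjusted p from 0.0596 to 0.363. Cdc6, which loads this helicase, rose by 2.32 ± 0.34 (adjusted p = 4.64e-06), Exo1, a repair nuclease, by 2.40 ± 0.40, Dtl, a ubiquitin ligase adaptor of S phase, by 2.40 ± 0.44, and Uhrf1, which copies DNA methylation, by 2.82 ± 0.48. E2f8, a late repressor of the same programme, was higher by 2.31 ± 0.31 on 1 sequence and by 0.37, not called, on another. These calls were lost with the block, where the differences were 1.44 to 1.87 and the adjusted p 0.0976 to 0.202.

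E2F factors drive such genes through a short motif near the start of transcription, and the promoters of 5 of them are shown, chosen after their values were seen, with that of Fabp3 for contrast. They are RefSeq sequences on GRCm38.p6, 250 bases before the start and 50 after it, read 5′ to 3′ on the strand of the gene. Capitals mark matches to TTTGGCGC or TTTCCCGC on either strand (GCGCCAAA and GCGGGAAA), letters picked after the cell cycle genes had been seen to move. All 5 cell cycle promoters shown hold a match, while most promoters of the cell cycle list hold none, so those shown do not stand for the list. Mcm3 lies at chr1:20820263-20820562 (minus strand), Mcm5 at chr8:75109259-75109558 (plus), Mcm6 at chr1:128359656-128359955 (minus), Mcm7 at chr5:138171834-138172133 (minus), Cdc6 at chr11:98907901-98908200 (plus) and Fabp3 at chr4:130308488-130308787 (plus).
Mcm3: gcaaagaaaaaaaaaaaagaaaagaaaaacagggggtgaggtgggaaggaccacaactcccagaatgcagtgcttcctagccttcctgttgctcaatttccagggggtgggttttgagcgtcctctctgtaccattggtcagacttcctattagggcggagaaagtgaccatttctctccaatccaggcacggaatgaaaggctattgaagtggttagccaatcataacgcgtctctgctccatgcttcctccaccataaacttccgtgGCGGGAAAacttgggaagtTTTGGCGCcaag
Mcm5: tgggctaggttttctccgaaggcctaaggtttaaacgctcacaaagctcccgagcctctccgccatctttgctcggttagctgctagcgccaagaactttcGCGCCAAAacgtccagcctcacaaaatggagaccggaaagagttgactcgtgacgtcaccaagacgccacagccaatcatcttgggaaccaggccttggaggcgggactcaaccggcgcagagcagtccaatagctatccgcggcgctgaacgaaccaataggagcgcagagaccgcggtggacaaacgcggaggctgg
Mcm6: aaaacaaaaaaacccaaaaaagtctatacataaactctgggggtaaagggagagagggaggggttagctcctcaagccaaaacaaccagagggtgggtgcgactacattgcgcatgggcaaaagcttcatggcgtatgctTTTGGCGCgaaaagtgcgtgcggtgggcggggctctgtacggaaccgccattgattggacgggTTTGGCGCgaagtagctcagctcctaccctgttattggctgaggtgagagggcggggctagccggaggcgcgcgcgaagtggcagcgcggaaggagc
Mcm7: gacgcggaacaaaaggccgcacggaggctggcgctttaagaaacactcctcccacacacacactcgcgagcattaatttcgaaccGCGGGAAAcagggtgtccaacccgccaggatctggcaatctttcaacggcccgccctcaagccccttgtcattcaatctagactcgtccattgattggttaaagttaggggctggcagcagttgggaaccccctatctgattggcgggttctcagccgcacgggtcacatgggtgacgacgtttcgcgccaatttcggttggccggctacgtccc
Cdc6: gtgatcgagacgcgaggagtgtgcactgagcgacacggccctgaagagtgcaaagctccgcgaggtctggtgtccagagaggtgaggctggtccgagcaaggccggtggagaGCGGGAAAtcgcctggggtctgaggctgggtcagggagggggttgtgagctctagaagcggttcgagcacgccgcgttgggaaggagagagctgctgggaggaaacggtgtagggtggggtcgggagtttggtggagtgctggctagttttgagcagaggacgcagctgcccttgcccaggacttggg
Fabp3: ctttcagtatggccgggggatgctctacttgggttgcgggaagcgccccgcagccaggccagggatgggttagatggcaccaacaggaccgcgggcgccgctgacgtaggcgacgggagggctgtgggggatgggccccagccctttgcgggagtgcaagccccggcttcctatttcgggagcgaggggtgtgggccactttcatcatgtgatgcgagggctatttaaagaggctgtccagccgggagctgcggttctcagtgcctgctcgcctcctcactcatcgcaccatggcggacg
The first match in capitals begins 110 bases before the start in Mcm6, and at 149, 165 and 138 bases before it in Mcm5, Mcm7 and Cdc6, while both matches of Mcm3 lie just past its start; Fabp3 holds none. Of 30 genes of the cell cycle list with a promoter here 6 held the motif (20%), against 13 of 668 genes of the other pathway lists (1.95%) and 486 of all 27025 genes with a promoter (1.8%). Among genes tested the share was 3.03%, among those called higher 6.43% and among those called lower 1.87%. A match is a description of these letters only. The direct repeat of AGGTCA with 1 base between, the element that PPAR and RXR bind together, was found in 13 of the 27025 genes in these windows, in 1 gene called higher and in 4 called lower, and in none of the lists, so it was not compared further.

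**Figure D2:**
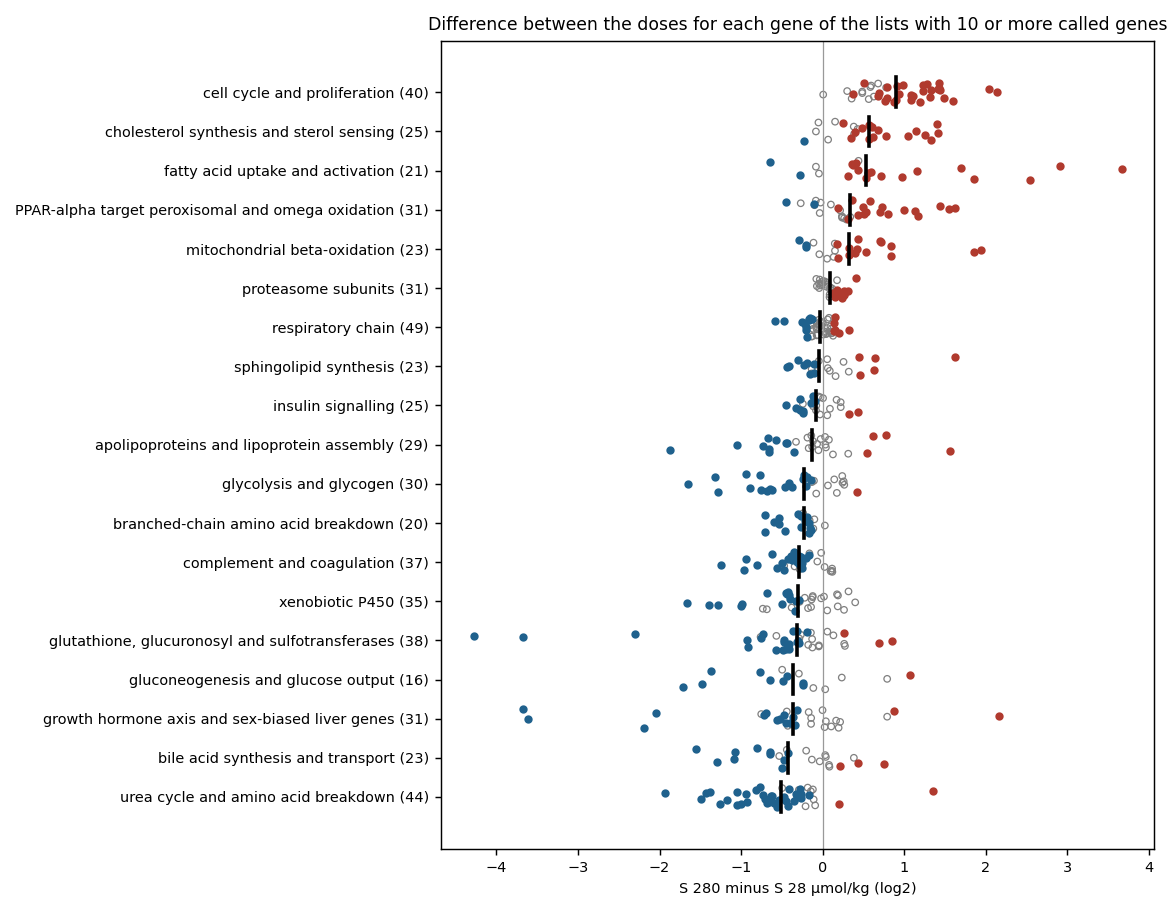
Difference between 280 and 28 µmol/kg of S (log2, horizontal axis) for each gene of the 19 pathway lists with 10 or more called genes, with the number of genes measured in parentheses; filled red points were called higher, filled blue points called lower, open grey points were not called, and the black line is the median. The medians of the cell cycle, cholesterol, fatty acid uptake and oxidation lists lie to the right of 0, and those of the amino acid, bile acid, glucose, conjugation and complement lists to the left.

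Among the genes of lowest difference, Sult3a1 and Sult2a2 are sulfotransferases, the latter of steroids and bile acids, and both are typical of female mouse liver. Sult3a1 stood at -4.76, -1.56 and -1.14 at 28 µmol/kg and at -7.83, -6.56 and -4.48 at 280. The difference was -4.28 ± 0.53 (adjusted p = 2.75e-07), and the groups overlap through a mouse at 28 µmol/kg. Sult2a2 stood at -5.40, -1.26 and -0.97 and then at -6.14, -5.50 and -5.06 (-3.50 ± 0.64, adjusted p = 8.47e-05), with the overlap coming from the same mouse, replicate 1, and stood above background on 7 of the 12 arrays at 280. These genes were far below the pool at either dose, with medians of -1.56 and -1.26 at 28 µmol/kg.

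Ugt2b1, a glucuronosyltransferase, was lower in every mouse at 280 µmol/kg, from -1.12, -0.95 and -0.29 to -4.01, -3.05 and -2.29 (-2.30 ± 0.24, adjusted p = 1.21e-08). Over the 38 glutathione, glucuronosyl and sulfotransferases measured 21 were called lower and 3 higher, with a median of -0.32; 7 and 1 were called with scan day as a block. Of 35 xenobiotic P450 genes 15 were called lower and none higher, with a median of -0.30. Cyp2c38 went from -0.27, 0.06 and 0.26 to -1.77, -1.27 and -0.97 (-1.40 ± 0.12, adjusted p = 5.78e-10) and was the only one of them called with the block (-1.25, adjusted p = 0.000783). Cyp2c54 was lower by -1.67 ± 0.31 (adjusted p = 8.13e-05; 0.109 with the block) and Cyp3a11, the main target of the receptor PXR, by -0.41 ± 0.12 (adjusted p = 0.0072; 0.0942 with the block). Probes of these Cyp2c and Cyp3a genes, which are near copies, may share signal. Cyp2b10, the main target of CAR, was not called on its brighter sequence (-0.18 ± 0.11, adjusted p = 0.243; -0.07 with the block) and lower by -1.05 on another, and Cyp1a1, the target of the aryl hydrocarbon receptor, differed by 0.06 ± 0.23 (adjusted p = 0.884), a value whose sign turned with the block (-0.44) and when any of 3 single mice was left out.

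Slc10a1, the sodium-dependent bile acid carrier of hepatocytes, stood at -0.67, -0.58 and -0.44 and at -2.02, -1.60 and -1.40 (-1.08 ± 0.13, adjusted p = 2.54e-07). Slco1a4 and Slco1b2, organic anion carriers, were lower by -1.55 ± 0.20 (adjusted p = 4.74e-07) and -0.80 ± 0.12 (adjusted p = 3.75e-06; 0.067 with the block), and Baat, which links bile acids to amino acids, by -0.48 ± 0.05 (adjusted p = 1.59e-08). Of 23 genes of bile acid synthesis and transport 10 were called lower and 3 higher, with a median of -0.42, and 6 and none with the block; with normexp background correction 11 and 3 were called and the median was -0.21. Cyp7a1, the rate-limiting enzyme of bile acid synthesis, was not called (0.38 ± 0.33, 95% interval -0.28 to 1.05, adjusted p = 0.416; 0.66 and still not called with the block).

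Of 16 genes that make or release glucose 9 were called lower and 1, Pdk4, higher, with a median of -0.36, and 7 were called lower and none higher with the block. Fbp1, the liver fructose bisphosphatase, stood at -0.67, -0.26 and -0.10 at 28 µmol/kg and at -2.45, -1.94 and -1.61 at 280, 3.27-fold lower (-1.71 ± 0.14, adjusted p = 3.77e-10). G6pc, the phosphatase that frees glucose, went from -1.25, -0.84 and -0.54 to -2.86, -2.34 and -1.87 (-1.48 ± 0.20, adjusted p = 1.18e-06). Slc37a4, which carries glucose 6-phosphate to it, was lower by -1.37 ± 0.11 (adjusted p = 1.24e-10), and Slc2a2, the glucose transporter of the hepatocyte surface, by -0.77 ± 0.09 (adjusted p = 1.1e-07). Each of these 4 genes was separated between the doses and was called with scan day as a block.

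Of 30 genes of sugar breakdown and glycogen 19 were called lower and 1 higher, with a median of -0.23; 16 and none were called with the block, where the median was -0.41. Khk, the fructose kinase (probe at chr5:31207763-31207822, mm8), went from -0.44, 0.06 and 0.13 to -1.94, -1.66 and -1.36, 3.14-fold lower (-1.65 ± 0.12, adjusted p = 1.29e-11). Gckr, the regulator of glucokinase, was lower by -0.89 ± 0.10 (adjusted p = 3.94e-08). Aldoc, the brain aldolase, was the gene called higher (0.42 ± 0.14, adjusted p = 0.0187) and lost its call with the block (adjusted p = 0.738).

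Amino acid breakdown had the lowest median of the pathway lists, -0.52, with 34 of 44 genes called lower and 2 higher. In 28 genes of the list all mice at 280 µmol/kg lay below all at 28, and with the block 21 were called lower and 1 higher. Oat, which turns ornithine towards proline and glutamate (probe at chr7:132396386-132396445, mm8), stood at -1.14, -0.84 and -0.49 and then at -3.63, -2.52 and -2.15 (-1.93 ± 0.19, adjusted p = 9.45e-09). Gnmt, which disposes of excess methyl groups, was lower by -1.49 ± 0.14 (adjusted p = 3.69e-09), Asl, an enzyme of the urea cycle, by -1.05 ± 0.09 (adjusted p = 5.21e-10) and Uroc1, of histidine breakdown, by -0.77 ± 0.07 (adjusted p = 1.17e-09). Psat1, an enzyme of serine synthesis placed in this list, went the other way (1.35 ± 0.31, adjusted p = 0.0011; 0.34 with the block). Asns, which makes asparagine and answers to amino acid shortage, was also higher, from 0.37, 0.58 and 0.96 to 1.32, 1.56 and 2.10 (1.05 ± 0.17, adjusted p = 1.99e-05). For branched-chain amino acids 15 of 20 genes were called lower and none higher, with a median of -0.23, and 5 with the block.

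Of 37 complement and coagulation genes 23 were called lower and none higher, with a median of -0.29, and 19 lay lower without overlap; 9 were called lower with the block. C9, which builds the pore of complement, stood at -0.69, -0.42 and -0.01 and then at -2.04, -1.60 and -1.21 (-1.25 ± 0.16, adjusted p = 5.76e-07), and C8g, part of the same pore, was lower by -0.81 ± 0.08 (adjusted p = 9.27e-09). Acute phase proteins were mostly not called, with 6 of 27 lower and 1 higher, or 1 and none with the block. Serpina3k, a protease inhibitor, was lower by -1.15 ± 0.19 (adjusted p = 1.98e-05), and Il1rn, the antagonist of the interleukin-1 receptor, higher by 0.76 ± 0.21 (adjusted p = 0.0063; 0.342 with the block).

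Apolipoprotein genes parted: Apoa1, of high density lipoprotein, rose from -0.04, 0.61 and 1.02 to 1.92, 2.10 and 2.48 (1.56 ± 0.15, adjusted p = 6.78e-09), and Apoc3, which slows the clearance of triglyceride, went from -0.41, -0.27 and 0.01 to -1.63, -1.29 and -0.93 (-1.05 ± 0.09, adjusted p = 8.2e-10). Over that list 4 of 29 genes were called higher (13.8%, near the 12.6% of all sequences) and 10 lower (34.5%, against 15.9%). The median was -0.13, or -0.23 with the block, where 4 were called higher and 6 lower. Genes of the growth hormone axis and of sex-biased liver expression had 14 of 31 called lower and 2 higher, with a median of -0.37. With the block 4 and 1 were called and the median was -0.135. Igfbp2, a binding protein that growth hormone lowers, was higher, from -1.49, -0.97 and -0.20 to 0.58, 1.31 and 1.94 (2.16 ± 0.29, adjusted p = 7.6e-07). Ghr, the growth hormone receptor, and Stat5b, its transcription factor, were lower by -0.52 ± 0.07 (adjusted p = 8.02e-07) and -0.31 ± 0.04 (adjusted p = 1.44e-06), both lost with the block (adjusted p = 0.113 and 0.063). Mup3, a urinary pheromone carrier typical of males, was lower by -2.04 ± 0.35 (adjusted p = 3.44e-05; 0.167 with the block), and its second sequence gave -0.52.

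Ppara stood at 0.02, 0.14 and 0.44 at 28 µmol/kg and at -0.14, 0.18 and 0.38 at 280 (-0.07 ± 0.10, adjusted p = 0.617), and its sign depended on the fit. Pparg was slightly lower (-0.27 ± 0.08, adjusted p = 0.0076; 0.218 with the block), and Rxra, their partner, by -0.32 ± 0.06 (adjusted p = 0.000217) on its brighter sequence, with 0.18, not called, on another. In the list of these receptors and their coactivators 7 of 16 genes were called lower and none higher, and 1 with the block. Fgf21, a fasting hormone that PPARα turns on, varied widely, from -0.43 to 1.60 and from 0.19 to 2.39, and was not called (0.49 ± 0.42, adjusted p = 0.408), with -0.52 (adjusted p = 0.741) under the block. Gdf15, a hormone of cell stress, was higher by 0.70 ± 0.24 (adjusted p = 0.031), a call lost with the block (adjusted p = 0.643) and without any of 5 single mice.

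Of 32 endoplasmic reticulum stress genes 2 were called higher and 1 lower, or 1 and 2 with the block. Of 31 proteasome subunits 12 were called higher and none lower, with a median of 0.09, and 4 were called with the block, where the median was 0.03. The respiratory chain had 6 of 49 called higher (12.2%) and 11 lower (22.4%), against 12.6 and 15.9% of all sequences. Its median was -0.04, and 5 were called each way with a median of 0.02 with the block. Interferon-induced genes had a median of 0.46 with 1 of 32 called, Usp18 (1.14 ± 0.28, adjusted p = 0.0018). The list's median per mouse ran from -0.54 to 0.23 at 28 µmol/kg and from -0.60 to 0.59 at 280.

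Markers of other cell types were checked as whole lists. Of 17 hepatocyte markers 7 were called lower and 1 higher, with a median of -0.17, or 5 and 1 with a median of -0.32 with the block. The median per mouse ran from -0.49 to -0.21 at 28 µmol/kg and from -0.69 to -0.47 at 280. Of 21 Kupffer cell and macrophage markers 1 was called, Cd9, which other cells also make (1.14 ± 0.14, adjusted p = 1.69e-07), and the medians per mouse overlapped, from -0.18 to 0.18 and from -0.18 to 0.81. Of 27 stellate cell and matrix markers 7 were called lower and 1 higher, with a median of -0.22. That median was -0.34 with the block, where 4 were called lower and none higher, and -0.09 with normexp background correction, where 6 and 1 were called. Dcn, a matrix proteoglycan, was lower by -0.45 ± 0.06 (adjusted p = 2.29e-07). Of 17 endothelial markers 1 was called higher and 1 lower, or none and 1 with the block. Of 12 cholangiocyte markers Krt8 and Krt18, keratins that hepatocytes also make, were higher by 0.54 ± 0.09 (adjusted p = 2.45e-05) and 0.66 ± 0.11 (adjusted p = 3.32e-05), with adjusted p of 0.15 and 0.0733 with the block.

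Of 11 adipocyte markers measured 3 were called higher and 1 lower, or 1 and 1 with the block. Fabp4 was the highest of them, while Retn, the adipocyte hormone resistin, fell from 1.03, 1.28 and 1.88 to -1.32, -0.60 and 0.44 (-1.82 ± 0.26, adjusted p = 2.14e-06), above background on 12 arrays at 28 µmol/kg and on 3 at 280. The droplet protein Plin1 was higher by 0.64 ± 0.23 (adjusted p = 0.0354), a call that most other settings did not keep, and Cfd, the adipocyte protease adipsin, stood at 4.04, 5.36 and 5.89 and at 4.16, 4.95 and 5.84 (-0.25 ± 0.26, adjusted p = 0.511; 0.56 and still not called with the block). The median over the adipocyte list ran from 0.76 to 1.52 per mouse at 28 µmol/kg and from 0.17 to 1.59 at 280. Skeletal muscle markers had 2 of 16 called higher (12.5%) and 3 lower (18.8%), near the 12.6 and 15.9% of all sequences. With the block 1 was called higher and 2 lower. Myh2 was among those called lower without it (-1.71 ± 0.45, adjusted p = 0.0042, or 0.43 with the block). Of the 16 markers 5 stood above background on all arrays. In erythroid, lymphocyte and neutrophil lists 1 gene each was called, all lower, of 6, 12 and 5 measured, and of 7 pancreatic acinar markers 1 was called higher and 2 lower. With the block none of those 3 lists held a called gene, and 1 acinar marker was called in each direction. The part of other cells in the differences was not tested.

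The mice at 84 µmol/kg lay close to those at 28. By limma 5 sequences were called higher and 1 lower between 84 and 28 µmol/kg (0.0192 and 0.00384% of those tested; 1319 had an unadjusted p under 0.05), while 2560 (9.84%) were higher and 2800 (10.8%) lower at 280 than at 84. The order of the doses was not tested, and picking sequences by their end dose difference favours a mean at 84 in between. Over the sequences called between the end doses, the group mean at 84 lay between those at 28 and 280 for 86.9%. In the median 21.3% of the difference was reached at 84. Some genes had gone further: Fabp3 stood at 1.90, 2.61 and 3.21 at 84 µmol/kg, between and apart from the mice at either end dose. Fabp4 at 3.45, 3.90 and 4.13 was likewise clear of both. Khk, by contrast, at -0.58, -0.43 and 0.00 overlapped the mice at 28 µmol/kg, and so did Rgs16, a brake on G protein signalling, at -1.62, -0.03 and 0.33 against -1.42, -0.19 and 0.32. At 280 µmol/kg Rgs16 stood at -3.65, -3.09 and -1.55 (-2.58 ± 0.37, adjusted p = 2.94e-06 against 28).

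**Figure D3:**
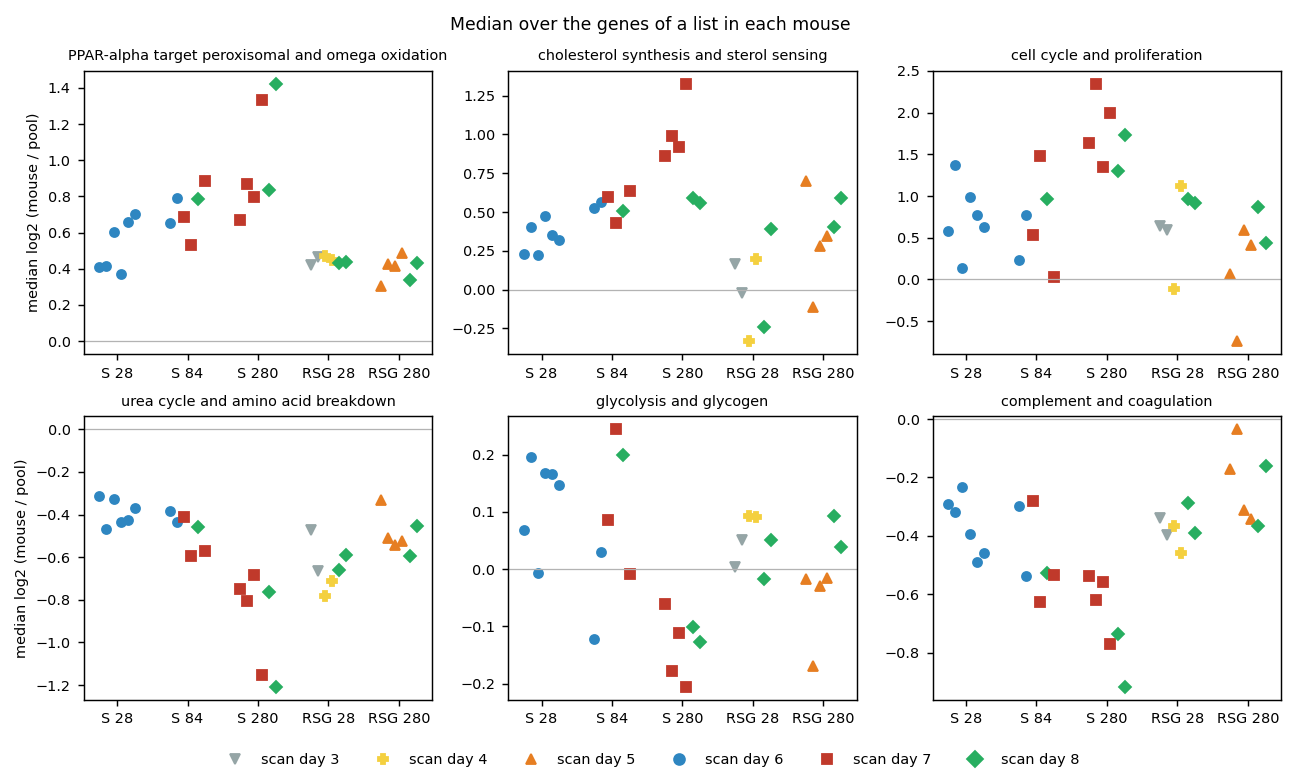
Median over the genes of 6 lists in each liver (log2 of the mouse over the pool, vertical axis, each panel on its own scale), by compound and dose in µmol/kg (horizontal axis), with shape and colour for the day the arrays were scanned. All mice at 28 µmol/kg of S share scan day 6, those at 280 lie on days 7 and 8, and those at 84 on all 3; the urea cycle and amino acid medians run from -0.47 to -0.31 at 28 µmol/kg and from -1.21 to -0.68 at 280.

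RSG gave no such spread between the same doses. Between 280 and 28 µmol/kg of RSG 3 sequences were called higher (0.0115%) and none lower by limma, and 3695 had an unadjusted p under 0.05. The test of the difference itself, that of S minus that of RSG, called 2070 sequences higher (7.95%) and 2441 lower (9.38%), and 101 and 127 with scan day as a block (0.388 and 0.488%). Replicate 2 of RSG at 280 µmol/kg stood below the other mice of its group in Fabp4 (1.74) and G6pc (-2.60). In an added fit without that mouse and without a block, 2009 sequences were called higher and 2287 lower. Gabrg1 had log ratios of -0.01, 0.06 and 0.29 at 28 µmol/kg of RSG and of -0.01, 0.07 and 0.43 at 280. It passed the filter on dim signals through the 280 µmol/kg group of S alone, so these ratios are no measured level. By limma the dose differences of S and RSG were called apart (adjusted p = 3.9e-09, or 1.02e-05 with the block). That test rests on the group where the gene is high. Fabp3 stood at 0.83, 1.47 and 1.68 and at -0.16, 0.96 and 1.79 on RSG and differed between the compounds by 4.39 (adjusted p = 9.08e-08; 0.0028 with the block).

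Fabp4 was at 3.18, 3.39 and 4.00 and at 1.74, 3.98 and 4.67 on RSG, so already high at the lower dose, and the differences of S and RSG stood 3.39 apart (adjusted p = 1.69e-05; 0.0525 with the block). Otop1, Fbp2 and Krt20, a keratin of gut epithelium, were the other genes with the largest excess, 4.75, 3.44 and 3.45. For Krt20 the S difference alone was 1.66 ± 0.56 (adjusted p = 0.0241) and turned to -0.19 with the block. At the other end were Sult3a1 (-5.30), Sult2a2 (-3.51), Lrtm1 (-2.94), Dsg1c, a desmosomal cadherin (-2.82), and Cyp2c54 (-2.59). On RSG Sult3a1 stood at -3.37, -2.48 and -1.85 at 28 µmol/kg and at -2.47, -1.60 and 0.01 at 280, a dose difference of 1.02 against -4.28 for S. Sult2a2 was already low on RSG at the lower dose, from -6.15 to -2.79, and ran from -5.42 to -2.21 at 280 µmol/kg. Its low level at 280 µmol/kg of S is thus not particular to S. Of these 5 none kept its call with the block, with adjusted p from 0.0846 to 0.423.

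By list, the difference from RSG was called for 29 of the 40 cell cycle genes, all higher, and for none with scan day as a block. The median dose difference of the list was 0.90 for S and -0.37 for RSG. The difference was called for 17 higher and 2 lower of the 31 peroxisomal and omega oxidation genes (medians 0.34 and -0.03), or 2 and none with the block, and for 31 lower and 1 higher of the 44 amino acid genes (-0.52 and 0.15), or 4 and none with the block. In complement and coagulation 25 of 37 were called lower (-0.29 and 0.14), and 1 with the block. In cholesterol synthesis 3 of 25 were called higher, and none with the block, with medians of 0.57 for S and 0.29 for RSG. For Sqle, which was higher by 0.72 on RSG, the difference between the compounds was 0.69 (adjusted p = 0.129), and for G6pc, which was lower by -0.69 on RSG, it was -0.79 (adjusted p = 0.0523), so neither was called.

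**Figure D4:**
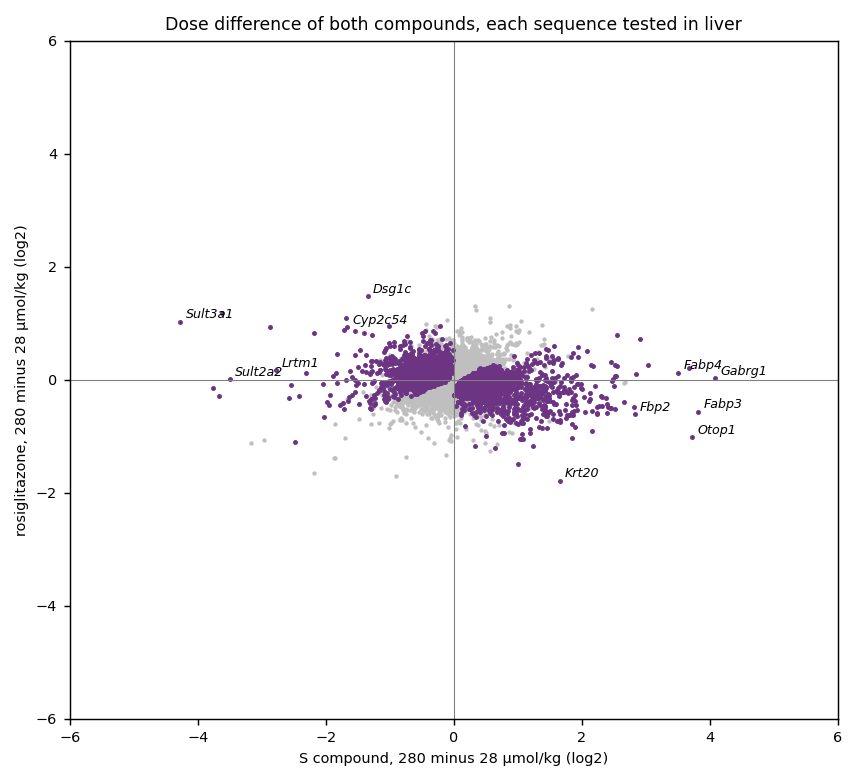
Dose difference (280 minus 28 µmol/kg, log2) of each of the 26023 sequences for S (horizontal axis) and for RSG (vertical axis), both axes on the same scale; purple marks sequences whose 2 differences were called apart, and names mark 11 of these, among the highest and lowest. The cloud is wide along the S axis and narrow along that of RSG.

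Scan day could be separated from dose in part. Within the day that held 4 mice at 280 µmol/kg and 3 at 84, 1469 sequences were higher (5.65%) and 1324 lower (5.09%) at 280. These 4 mice are also part of the comparison with 28 µmol/kg. The 4 mice of that day against all 6 at 28 µmol/kg gave 2702 higher and 3552 lower, and the 2 mice of the other day 2999 and 4086. The 2 mice at 280 of the last day differed from the 4 of the day before in 438 higher and 1170 lower sequences, so mice of this dose did differ between those days. At 84 µmol/kg no sequence was called between the 3 mice of scan day 7 and the 2 of scan day 6, the day of all mice at 28. With so few mice, among them the replicate whose arrays agreed least, this does not show that the days are alike. Of 484 sequences called with a difference of at least 2-fold, 481 kept their sign with the block and 212 their call.

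**Figure D5:**
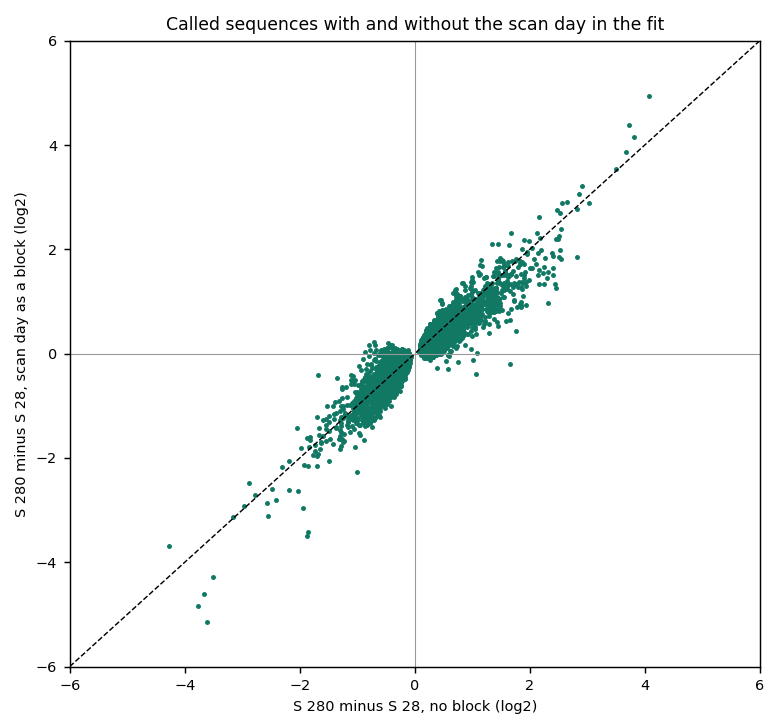
Difference between 280 and 28 µmol/kg of S (log2) of the 7422 called sequences without a block (horizontal axis) and with scan day as a block (vertical axis), with the line of equal values dashed. Points follow the line, 98.4% keep their sign and 2153 keep their call.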

How the data were processed

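Liver RNA of each mouse was labelled and hybridised against the pool on 2 Agilent whole-genome arrays with the dyes exchanged. Per the file headers, Agilent Feature Extraction 9.5 subtracted a fitted background surface, applied lowess dye normalization and wrote a deposited log10 ratio of Cy5 over Cy3. The deposited intensity columns, brightness on a linear scale, served only for an alternative, and the deposited marks for control, outlier, saturated and well above background spots served for filtering. Here each log10 ratio was turned to log2 of mouse over pool, spots of a probe and both arrays of a mouse were averaged, and 26023 of 41174 probes passed the filter on dim signals. Genes were named from RefSeq accessions where the reference held them (23374 probes), otherwise by the array files (17800).

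All 36 liver mice of the 6 groups of compound and dose entered 1 fit in limma 3.58.1 (R 4.3.3, with Python 3.11.15, numpy 2.4.6 and pandas 2.3.3), with 280 minus 28 µmol/kg of S and its difference from RSG as contrasts and Benjamini-Hochberg adjustment over all sequences. On simulated data with no scan day effect, the fit recovered 50% of changes of 0.3 (log2) and 100% of changes of 2, with 6 false calls. The simulation did not cover scan day. Replicates are labelled biological, so spread is between mice. Alternatives were 2-group and 3-group fits, scan day, slide and replicate number as blocks, other scalings, filters and dyes, normexp background correction and leaving out each mouse. The members and gene lists were chosen with earlier results of these data known. Genes named are the 20 highest and 20 lowest called without overlap (1 sequence per gene, of smallest p), in each list the 4 genes of smallest p and the first against the majority (brightest sequence), the 6 highest and 6 lowest differing from RSG, and a set of fixed genes, with some left out for length and some not reported here. Other tissues were not used here.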

Additional observations from a re-analysis of the deposited data

Results flagged for a closer look

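Over the genes named, 10 of 218 sets of 6 mice held a mouse far from the others by Dixon's test, where chance gives about 1 in 20. At 280 µmol/kg these were Fabp3 in replicate 4 (4.82, next 4.43), Pdk4 in replicate 6 (4.69, next 2.05) and Mcm5 in replicate 3 (1.78, next 2.40). At 28 µmol/kg replicate 1 stood apart in Sult3a1 (-4.76, next -2.21), Sult2a2 (-5.40, next -2.60), Ugt2b1 (-0.29, next -0.84) and Dcn (0.16, next -0.08). Replicate 2 stood apart in Cdc6 (1.38, next 0.69) and Oxct1 (0.64, next 0.30), and replicate 3 in Khk (-0.44, next 0.02). All are log2 of the mouse over the pool.

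The dose difference of S exceeded that of RSG, by limma's test of the difference, in Otop1 by 4.75 (adjusted p = 4.93e-06), Fabp3 by 4.39 (9.08e-08), Gabrg1 by 4.05 (3.9e-09), Krt20 by 3.45 (0.00242), Fbp2 by 3.44 (1.44e-06) and Fabp4 by 3.39 (1.69e-05). It lay below that of RSG in Sult3a1 by -5.30 (1.61e-05), Sult2a2 by -3.51 (0.0066), Lrtm1 by -2.94 (7.4e-05), Dsg1c by -2.82 (0.000527) and Cyp2c54 by -2.59 (9.89e-05). Gabrg1 was above background on none of the arrays at 28 µmol/kg of S, so the size of its difference is not firm.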

How the results depend on the processing

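Scan day as a block was the setting that moved the counts most: 2424 sequences were called against 7422, 1061 of them higher and 1363 lower, 1120 passed the study's thresholds, and 228 differed from RSG, 101 higher and 127 lower. Of 109 genes named, 66 were classed as the same in that fit, 37 as weaker and 6 changed sign: Cpt1a (-0.11), Fgf21 (-0.52), Cyp1a1 (-0.44), Ppara (0.17), Krt20 (-0.19) and Cfd (0.56). Genes called in neither fit, such as Scd1 and Cyp7a1, are among the 109, so these are not plain counts of calls kept or lost. Ppara was also turned by array weights (0.0298), Cfd by normexp (0.0506), and Cyp1a1 when 28 µmol/kg replicate 1 or 3 or 280 µmol/kg replicate 3 was left out, with values from -0.0249 to 0.1783 over all mice left out in turn. The cause was not tested. Leaving out each mouse gave 2836 to 3314 sequences higher and 3529 to 4187 lower. Of all calls 44.2% were higher, but 53.3% after centring each array on its median. With the replicate number as a block 3504 were higher and 4617 lower. The labels do not say that the numbers pair the mice, and they were not taken to. The correlation of deviations between mice of the same number ran from 0.09 in replicate 2 to 0.27 in replicate 1. Of 6 mice 3 correlated best with their own number. Whether mice of the same number share a source of variation was not tested. Dim sequences outside the filter carry no value here.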
